A study of Mus musculus with 6 samples.

Results

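The genes described here are 9 genes of the myelin sheath and of the oligodendrocytes (OLs) that make it, Mbp, Mog, Mag, Mobp, Cnp, Opalin, Ermn, Cldn11 and Aspa, out of 23494 genes in the UMI matrices. They were chosen by name, as textbook genes of mature OLs, and all 9 were measured in every matrix. The cells were tdT+/DAPI- cells sorted from the cerebral cortex of mice aged 3 to 4 months, of a pericyte reporter line NG2-Cre-ERT2/Ai14-flx or a second, Tbx18-CreERT2/Ai14-flx, in which tamoxifen switches on the red reporter in cells that use the Cspg4 (NG2) or the Tbx18 promoter and in their descendants. Each line gave 3 libraries: naïve cortex, cortex after physical injury (a saline injection) and cortex after ischemic injury (ET-1/L-NAME, which constrict vessels). Tamoxifen was given 7 days before injury and cells were taken 3 days after it. Each library is 1 pool of cortices from several animals of both sexes, so a condition has 1 sample, no difference between conditions was tested, and all intervals cover counting error only. The sort sets which cells are seen, and the NG2 promoter also labels OL precursor cells (OPCs), so OL-lineage cells are part of the NG2 libraries.

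OPCs divide and, when they leave the cycle, pass through a short premyelinating stage before they become mature OLs, which wrap axons in layers of compacted membrane. Myelin genes come on in steps along this path, and their transcripts are very abundant in mature OLs. Some of them, Mbp above all, are carried into the processes of the cell and translated near the sheath. Mbp encodes myelin basic protein, which holds the cytoplasmic faces of the membrane together, and Mobp (mm10, chr9:120149707-120181484) another basic protein of compact myelin. Mog (chr17:37010743-37023398) and Mag (chr7:30899176-30914873) encode immunoglobulin-type proteins of the outer surface of the sheath and of the membrane that faces the axon. Cnp (chr11:100574904-100591729) encodes an enzyme of the cytoplasmic channels of myelin and is used earlier in the lineage than the rest. Cldn11 (chr3:31149920-31164324) encodes the tight junction claudin between myelin layers, Opalin (chr19:41061710-41077113) a transmembrane protein of OLs, Ermn (chr2:58045113-58052864) a cytoskeletal protein of late OLs, and Aspa (chr11:73304992-73329596) the enzyme that splits N-acetylaspartate. The 3′ counts of the Mbp locus cannot separate its classic transcripts from the golli transcripts, which share its last exons and are also made by immune cells.

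Sequences of RefSeq promoter windows (GRCm38.p6, 250 bases before the start to 50 bases after it) were at hand for 8 of the 9 genes, in 10 windows. They were searched on both strands for ACAAAG and ACAATG, core letters bound by SOX factors such as Sox10, and for CTGGCAC and CTGGTAC, core letters of the factor Myrf, since both factors are known to drive OL genes. No matches overlap in the printed windows. The windows of 4 genes are printed for the contrast between them. Mobp has the most ACAAAG matches, Cnp holds a match to each kind of motif, and Cldn11 has no match. Opalin has 2 ACAAAG matches, 1 before and 1 past the start, and a Myrf-type match past the start. Only the 250 bases before the start are shown, 5′ to 3′ on the strand of the gene, with motif matches in capitals.
Mobp (chr9:120149492-120149741, plus strand): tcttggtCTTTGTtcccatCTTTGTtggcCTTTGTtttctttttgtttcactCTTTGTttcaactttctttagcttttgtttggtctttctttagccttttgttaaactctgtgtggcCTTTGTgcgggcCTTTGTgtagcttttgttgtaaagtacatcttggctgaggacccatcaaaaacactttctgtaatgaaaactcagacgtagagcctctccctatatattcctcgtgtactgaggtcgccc
Cnp (chr11:100574689-100574938, plus strand): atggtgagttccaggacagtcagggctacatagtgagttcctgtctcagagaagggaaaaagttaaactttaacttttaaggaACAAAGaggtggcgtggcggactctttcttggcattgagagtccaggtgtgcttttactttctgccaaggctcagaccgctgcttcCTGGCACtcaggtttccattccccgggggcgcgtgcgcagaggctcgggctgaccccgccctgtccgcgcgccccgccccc
Opalin (chr19:41077114-41077363, minus strand): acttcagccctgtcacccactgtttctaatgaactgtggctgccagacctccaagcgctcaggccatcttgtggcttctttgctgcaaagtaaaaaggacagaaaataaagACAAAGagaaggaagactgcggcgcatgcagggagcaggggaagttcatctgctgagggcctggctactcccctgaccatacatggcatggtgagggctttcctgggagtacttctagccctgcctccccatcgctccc
Cldn11 (chr3:31149670-31149919, plus strand): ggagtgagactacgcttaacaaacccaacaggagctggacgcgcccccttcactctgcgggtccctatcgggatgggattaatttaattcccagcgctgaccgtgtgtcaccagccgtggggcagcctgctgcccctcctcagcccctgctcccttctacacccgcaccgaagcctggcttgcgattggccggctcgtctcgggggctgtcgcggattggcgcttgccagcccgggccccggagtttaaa
The letters ACAAAG are common: 18.7% of 32851 promoter windows hold them, and 4 of the 8 genes do (Cnp, Mag, Mobp and Opalin). The Mobp window holds 6 matches, and it is the 1 window of all 32851 with as many. CTGGCAC is in 5.01% of windows and in those of Cnp, Mag and Opalin, CTGGTAC in 2.24% and in that of Mog, and ACAATG in 12.6% and in that of Ermn. A match describes the letters of a window and not a site in use.

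The NG2 libraries hold 4306 naïve, 2563 physical injury and 3586 ischemic injury cells, with 20264659, 24674494 and 54276245 UMIs. The Tbx18 libraries hold 686, 3845 and 2047 cells. Libraries shared between 0 and 5 cell barcodes in each pair. Clusters are the study's own, and its name for NG2 cluster 4, mature OLs, was borne out by the data: the cells held Mal, a myelin proteolipid, at 8956 to 11650 CPM, the count scaled to all UMIs of the cell set, and the OPC marker Pdgfra at 0 to 2.77 CPM.

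In mature OLs all 9 genes were abundant in each library, and none differed by 2-fold or more between any 2 libraries. The cluster had 103 naïve, 294 physical injury and 592 ischemic injury cells, 2.39%, 11.5% and 16.5% of the cells of their libraries. It held 92.3%, 97.2% and 97.9% of all UMIs of the 9 genes. Summed over the 9 genes the level was 22050 CPM (95% exact Poisson interval 21796 to 22306) in naïve, 24241 CPM (24126 to 24356) in physical injury and 27106 CPM (27029 to 27184) in ischemic injury OLs. The summed level was thus highest after ischemic injury, with a ratio to naïve of 1.23 (1.21 to 1.24) and to physical injury of 1.12 (1.11 to 1.12). A 2-fold difference, the rule of size used here for genes with 20 or more counts in both libraries together, was passed upward by 10.6% and downward by 3.83% of all genes tested between ischemic and naïve OLs. Between physical injury and naïve OLs the background was 5% upward and 2.61% downward, and between the injuries 8.34% and 1.27%. The 9 genes counted 0 in each direction in each of the 3 comparisons. Markers of other cells, at low levels in OLs, also differed between the libraries. Of 8 pericyte markers 4 were lower and of 6 tested endothelial markers 4 were higher by 2-fold in physical injury than in naïve OLs, with summed levels of 335, 167 and 165 CPM and of 19.1, 54.1 and 50.4 CPM in naïve, physical injury and ischemic injury OLs. Of 7 OPC markers 3 were higher in ischemic than in naïve OLs, at 52.7, 90 and 149 CPM in sum. Of 6 tested microglia markers 5 were higher in ischemic than in physical injury OLs, while their sum was 50.4, 110 and 69.8 CPM. Their part in the levels of the 9 genes was not tested.

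Transcripts of proteins of the compact sheath had ischemic to naïve ratios above 1 and below 2. Mobp was at 1872 CPM in naïve, 2625 CPM in physical injury and 3020 CPM in ischemic injury OLs. Its ratio of 1.61 (1.55 to 1.68) between ischemic and naïve OLs was the highest of the 9. Mbp was at 3448, 3542 and 3985 CPM in the same order of libraries. Cldn11 stood at 2637, 3115 and 3684 CPM, an ischemic to naïve ratio of 1.40 (1.35 to 1.45). Both were lowest in naïve OLs, but for Mbp the physical injury and naïve intervals overlapped.

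Among the other sheath genes, Mog was at 2069 CPM in naïve, 2537 CPM in physical injury and 2924 CPM in ischemic injury OLs, higher after either injury. Mag was at 2902, 2811 and 4118 CPM, so only the ischemic library stood apart, at 1.47 (1.44 to 1.49) times the physical injury level. Cnp was at 4610, 5345 and 5435 CPM, higher after either injury. Opalin, at 1927, 2024 and 2109 CPM, had an ischemic to naïve ratio of 1.09 (1.05 to 1.14), the nearest to 1 of the 9.

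Ermn and Aspa had ischemic to naïve ratios below 1, short of a 2-fold difference. Ermn was at 1729 CPM in naïve, 1454 CPM in physical injury and 1300 CPM in ischemic injury OLs, with an ischemic to naïve ratio of 0.752 (0.720 to 0.785). Aspa was at 855, 788 and 531 CPM, with a ratio of 0.621 (0.584 to 0.662). When each cell was thinned to 1000 UMIs, Aspa was seen in 53.5% of naïve OLs, in 56.5% after physical and in 37.6% after ischemic injury, and Ermn in 82.8%, 77.7% and 69.6%. Unthinned, Aspa was seen in 98.1%, 99.3% and 88.7% of the OLs, whose median depth was 13252, 23779 and 29600.5 UMIs.

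**Figure D1:**
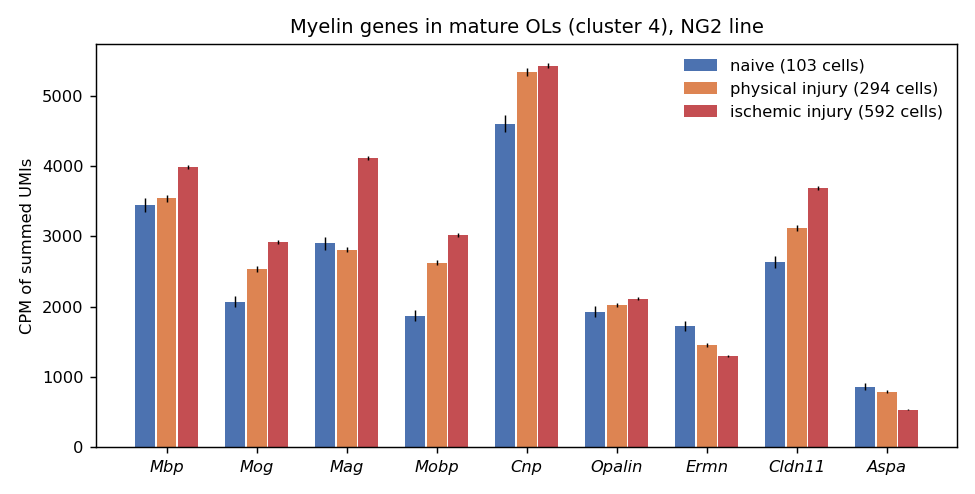
Level of each myelin gene in mature OLs of the NG2 line (cluster 4), as CPM of UMIs summed over cells, in the naïve, physical injury and ischemic injury libraries (1 library each). Lines on the bars are 95% exact Poisson intervals, which cover counting error only. Ermn and Aspa step down from naïve to ischemic injury (Aspa from 855 to 531 CPM), whereas Mobp, Mog and Cldn11 step up.

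Among other OL genes, from lists chosen by function, the 13 cholesterol synthesis genes had ischemic to naïve ratios above 1, 12 of them when TMM factors set the scale, and 0 reached 2-fold, with a median log2 ratio of 0.50, beside 0.24 for the 9 myelin genes and 0.08 for all genes tested. Hmgcs1, which makes the substrate of the pathway's controlling step, was at 327, 608 and 640 CPM in naïve, physical injury and ischemic injury OLs, and Cyp51, a later enzyme, at 178, 279 and 333 CPM. Of 12 other myelin proteins 0 were higher and 1 lower by 2-fold (background 10.6% and 3.83%): Hapln2, a link protein of the node, was at 95.5, 40.2 and 27.3 CPM. Mal was at 8956, 11650 and 10861 CPM. Of 10 myelin lipid enzymes 0 were higher and 1 lower, and of 10 OL transcription factors 0 in either direction. Ugt8a, which makes galactocerebroside, stood at 1044, 1146 and 1337 CPM, and the factor St18 at 1563, 1975 and 2018 CPM.

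Of 16 further genes of mature OLs 1 was higher and 2 were lower by 2-fold between ischemic and naïve cells (background 10.6% and 3.83%). Klk6, a secreted protease, had 0 counts in naïve OLs and was at 30.8 CPM after physical and 157 CPM after ischemic injury. Ptgds, a prostaglandin D synthase, was at 21396, 18504 and 12043 CPM. Of 9 tested genes of newly formed OLs 2 were higher, beside the same 10.6% of all genes. Gpr17, a receptor of the premyelinating stage, was at 6.11, 9.51 and 29.7 CPM in mature OLs. Bcas1, which marks cells at the start of myelination, was at 967, 970 and 649 CPM.

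Summed over the 9 genes, the OLs of the ischemic library were also the most uneven, though this did not hold for Cldn11. With each cell thinned to 5000 UMIs, which left 95 naïve, 291 physical injury and 546 ischemic injury cells, the 9 genes together had a mean of 108, 120 and 132 UMIs per cell. The ratio of variance to mean was 9.67, 6.27 and 13.5 for the sum and 3.89, 2.62 and 2.92 for Cldn11, and the lowest cell held 38, 43 and 5 UMIs of the 9 genes. All 9 genes were seen together in 94.2%, 99.3% and 87.3% of the unthinned OLs. Cells with under 50 UMIs of the 9 genes numbered 6, 2 and 35, with a median of 818, 839.5 and 907 UMIs in all. The deepest of them held 2572, 928 and 13030 UMIs, so not all were shallow. In the 35 ischemic cells the OPC markers Pdgfra and Ptprz1 were at 82.6 and 153 CPM, beside 2.38 and 11.2 CPM in the other ischemic OLs. The part of such cells in the unevenness was not tested.

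From cell to cell the genes went together to unlike degrees. Over the thinned OLs, the 36 pairs of genes had a median Spearman's rho of 0.18 in naïve, 0.12 in physical injury and 0.31 in ischemic injury cells. Cells of a library share its preparation and were thinned to equal depth, and these values are descriptions. Cnp had a median rho of 0.36, 0.36 and 0.49 with the other 8 genes, and Mog 0.26, 0.31 and 0.47. Mbp had 0.17, 0.10 and 0.27. Ermn had -0.06, 0.01 and 0.05, and Aspa 0.00, 0.03 and 0.10. These were the genes with fewest UMIs per thinned cell, 6.61 to 8.77 for Ermn and 2.85 to 4.21 for Aspa, beside 22.4 to 26.4 for Cnp. Counting error pulls rho towards 0 at low counts, so their values cannot be set against those of Cnp. Nearer in counts to Ermn (8.77) in naïve cells were Mobp (9.34) and Opalin (9.59), with a median rho of 0.27 and 0.22. The part of counting error in the values of Ermn and Aspa was not tested. The highest value between Ermn and any other gene was 0.27, in ischemic cells and with Aspa.

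**Figure D2:**
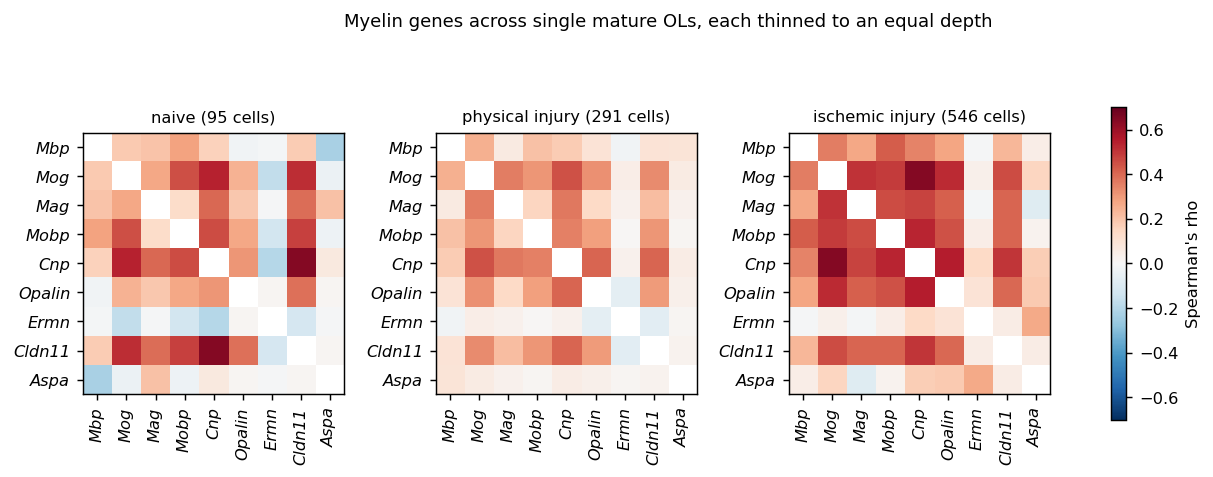
Spearman's rho between each pair of myelin genes across single mature OLs (95 naïve, 291 physical injury and 546 ischemic injury cells), each cell thinned to 5000 UMIs. Red is positive and blue negative. The rows of Ermn and Aspa, the genes with fewest UMIs, stay pale, and Mog, Mobp, Cnp, Opalin and Cldn11 are deeper red in the ischemic than in the physical injury library.

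Over clusters, genes whose levels went closely with the summed 9 were Ptgds (Pearson r = 0.97), then Efnb3, Ccdc13, Kif21a, Gm28320, A230009B12Rik, St18, Cmtm5 and Nkain2 (0.95 to 0.96). The measure was log2(CPM + 1) over 31 groups, each a cluster in a library with at least 20 cells, for 16500 genes. The groups share 3 libraries, and the OL cluster sets most of each value. By the same measure the 9 genes ranged from 0.98 for Cnp to 0.80 for Aspa.

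OPCs, NG2 cluster 6, held the 9 genes at a few percent of the OL level, and most of it lay in few cells. The summed level was 1223 CPM in 100 naïve, 978 CPM in 301 physical injury and 879 CPM in 294 ischemic injury cells. That is 5.55%, 4.03% and 3.24% of the level in OLs of the same library. The order turned with the study's filters applied a second time, to cells already past them. There the log2 ratio to naïve was 0.41 for physical and 1.09 for ischemic injury. This second cut works on genes, UMIs and mitochondrial share per cell. Which OPCs it left out was not counted, and their part in the turn was not tested. Mbp was at 578, 326 and 181 CPM and Cnp at 373, 447 and 396 CPM. Mag was at 135, 74.2 and 59.0 CPM and Cldn11 at 94.9, 86.4 and 158 CPM. Mog, Mobp, Opalin, Ermn and Aspa each stood at 30.1 CPM or below in every library.

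The genes were split within the cluster. Cells with at least 10 UMIs of the 9 genes, a split made on these genes and so a description, numbered 9 of 100, 28 of 301 and 57 of 294. They held 87.8%, 86.9% and 82.0% of the UMIs of the 9 genes in the cluster. In them the premyelinating gene Enpp6 stood at 1682, 1010 and 245 CPM, beside 6.15, 1.93 and 1.15 CPM in the other cells of the cluster. Bcas1 stood at 3277, 3405 and 2042 CPM, beside 389, 559 and 813 CPM. The OPC receptor gene Pdgfra was at 0, 148 and 333 CPM in the cells rich in myelin UMIs and at 881, 1024 and 875 CPM in the rest. The rich cells were not alike in the 3 libraries. Of the 9, 28 and 57 cells, Enpp6 was seen in 9, 22 and 24, Pdgfra in 0, 7 and 38, and Mal in 1, 9 and 29. Those cells were also deeper, with a median of 9339, 23924 and 21986 UMIs, beside 4023, 11500 and 9822. The 9 naïve cells showed the genes in part: Mbp was at 3760 CPM, Cnp at 2239 CPM, Mag at 878 CPM and Cldn11 at 655 CPM, while Mog, Mobp, Ermn and Aspa had 0 counts.

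Between libraries of OPCs, 3 of the 9 genes were higher and 2 lower by 2-fold in ischemic than in naïve cells, beside 8.63% and 4.53% of all genes tested. Mbp had a ratio of 0.312 (0.274 to 0.357) and Mag of 0.436 (0.335 to 0.572). Mog, Mobp and Ermn were the higher 3, on 6, 5 and 2 naïve counts, so their intervals reach from near 1 to 6.63 or more. Between physical injury and naïve OPCs Mog was higher and Opalin lower (background 5.73% and 4.04%). Between the injuries 4 were higher, Mobp, Opalin, Ermn and Aspa, and 0 lower (background 4.84% and 1.63%). Few cells carried these 4: they were seen in 12, 10, 6 and 4 of the 57 ischemic cells with at least 10 UMIs. Their levels there were 43.8, 53.5, 30.5 and 14.9 CPM. In the other 237 ischemic OPCs they were at 8.45, 3.84, 3.84 and 1.54 CPM. These ratios changed with the cells kept. Without the cells of highest doublet score (2, 3 and 10 of the OPCs), 0 genes were higher in ischemic than in naïve OPCs. Between the injuries 1 gene was then higher and 3 were lower. The share over all genes was not computed at this setting. The doublet score had not worked as a call of doublets. With the study's filters applied again the ratio of Mag turned to a log2 of 0.46. How many of the cells rich in these genes were left out was not counted. Pericyte markers differed as well: 8 of 8 were lower by 2-fold in OPCs of either injury than in naïve OPCs, with a summed level of 1860 CPM in naïve, 249 CPM in physical injury and 301 CPM in ischemic injury cells. Of 7 endothelial markers 3 were higher in ischemic than in naïve OPCs. The part of these markers' cells in the ratios was not tested.

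In pericytes, vascular cells that make no myelin (NG2 clusters 0, 1 and 2, with 3243, 1106 and 1085 cells), UMIs of all 9 genes were present at under 1% of the OL level. The summed level was 101 CPM (95.8 to 107) in naïve, 66.4 CPM (59.7 to 73.7) in physical injury and 180 CPM (168 to 193) in ischemic injury pericytes, which is 0.459%, 0.274% and 0.665% of the OL level. At least 1 such UMI was seen in 31.4%, 25.8% and 51.5% of pericytes at median depths of 3821, 4684 and 4202 UMIs. Thinned to 1000 UMIs the shares were 9.91%, 4.79% and 16.1%. In Tbx18 clusters 0, 1 and 2, vascular cells of libraries with few OLs, the summed level was 13.6, 11.1 and 10.7 CPM, most of it Cnp. Unlike the NG2 clusters of these numbers, they are endothelial cells, smooth muscle cells and pericytes. Pericytes (cluster 2) were 226 of 448, 433 of 3048 and 86 of 1621 of these cells. With the 3 libraries added up, Tbx18 pericytes stood at 19.3 CPM, beside 11.7 CPM in endothelial and 6.64 CPM in smooth muscle cells.

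The UMIs lay thinly over many pericytes. The highest count in 1 pericyte was 9, 3 and 6 UMIs, and 0 pericytes of any library had 10 or more, whereas the median OL held 242, 575.5 and 808. Between ischemic and physical injury pericytes 7 of the 9 genes were higher by 2-fold and 0 lower, beside 2.42% and 1.77% of all genes tested. Cldn11 was at 9.14, 6.91 and 28.5 CPM in naïve, physical injury and ischemic injury pericytes, and Mag at 12.2, 6.72 and 26.1 CPM. The other 5 were Mog, Mobp, Cnp, Opalin and Ermn. Mbp had a ratio of 1.98 (1.47 to 2.68) and Aspa of 1.40 (0.728 to 2.71). Between ischemic and naïve pericytes 3 genes were higher, Mag, Mobp and Cldn11, and 0 lower (background 2.30% and 2.51%). Between physical injury and naïve pericytes 0 were higher and 2 lower, Mog and Ermn (background 1.27% and 2.37%).

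The make-up of these UMIs matched that of OLs in part after ischemic injury. Cnp was 21.9% (19.1% to 24.8%) of the UMIs of the 9 genes in ischemic pericytes and 20.1% in ischemic OLs, and Mbp 15.0% (12.6% to 17.6%) and 14.7%. Cldn11 was 15.8% (13.4% to 18.4%) and 13.6%, while Opalin was 5.02% (3.64% to 6.73%) and 7.78%, apart by more than counting error. In naïve cells Cnp was 26.9% in pericytes and 20.9% in OLs, and in physical injury cells 27.0% and 22.0%. Mal, outside the 9, in pericytes was 0.334%, 0.179% and 0.466% of its OL level. Between the injuries 6 of 9 tested myelin proteins outside the 9 were higher in pericytes by 2-fold (background 2.42%). So were 4 of 7 OL transcription factors. Other OL-lineage lists had fewer: 1 of 11 further genes of mature OLs, 1 of 7 of newly formed OLs, 2 of 7 myelin lipid enzymes and 2 of 7 OPC markers. The counts were 3 of 6 for microglia markers, 5 of 6 for radial glia and cycling markers, and 0 of 8 for pericyte markers. The share of OLs among the cells kept by the study's filters was 2.39%, 11.5% and 16.5%. Among these cells the physical injury library had more OLs than the naïve one and the lower level in pericytes. Applied a second time, the filters kept 19 of 103, 175 of 294 and 505 of 592 OLs. The shares thus depend on where the filters cut and do not measure the OLs of the tissue. The part of free RNA, of RNA taken up and of mixed droplets in the pericyte values was not tested.

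**Figure D3:**
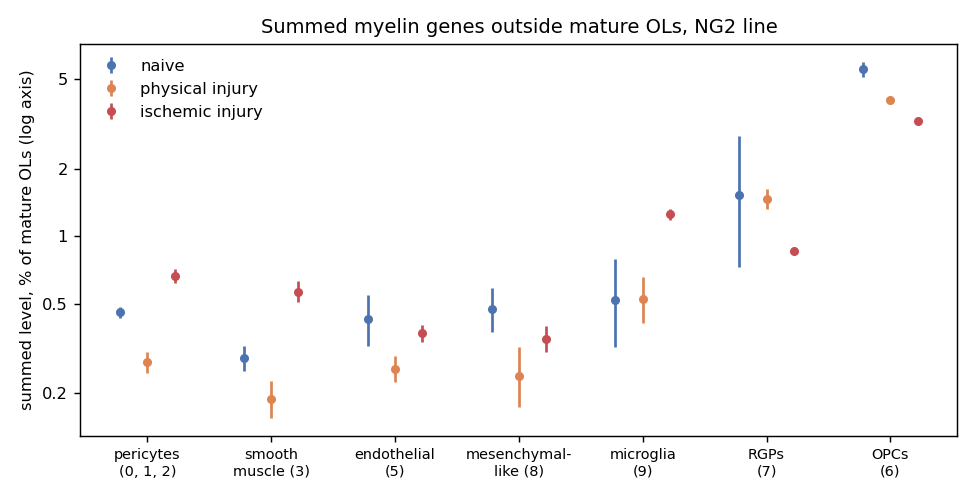
Summed level of the 9 myelin genes in other cell clusters of the NG2 line as a percentage of the level in mature OLs of the same library (log axis), with 95% counting intervals. Pericytes lie between 0.274% and 0.665% and OPCs between 3.24% and 5.55%. The ischemic library is highest in pericytes, smooth muscle and microglia, where 3 cells set the place of the microglia (0.485% without them). It is lowest in RGPs and in OPCs, whose order turns with the study's filters applied a second time.

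The other vascular clusters also held the genes at low levels. Smooth muscle cells (cluster 3) held the 9 genes at 63.0, 45.7 and 154 CPM, and 7 ischemic cells with at least 10 UMIs held 29.3% of that library's value, which was 109 CPM without them. Endothelial cells (cluster 5) held 94.1, 62.3 and 100 CPM, and mesenchymal-like pericytes (cluster 8) 104, 57.9 and 94.8 CPM. Microglia (cluster 9), phagocytes that take up myelin debris, held 115, 127 and 340 CPM in 18, 36 and 164 cells. Of the ischemic value 62.7% lay in 3 cells. In the other 161 ischemic microglia Mbp was at 27.4 CPM, Mag at 20.5 CPM and Cnp at 45.5 CPM. Their sum was 131 CPM, 0.485% of the OL level, beside 0.520% and 0.524% for all naïve and physical injury microglia. Without the 1 physical injury cell with at least 10 UMIs, that library stood at 111 CPM, 0.458%.

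Radial glial precursors (RGPs, cluster 7) had Cnp and Cldn11 above their level in pericytes and little of most other genes. Cnp was at 254 CPM in 76 physical injury and 148 CPM in 438 ischemic injury cells, and Cldn11 at 41.2 and 42.6 CPM. Mag was at 4.12 and 6.14 CPM, and Mog at 2.06 and 3.63 CPM. Mbp was at 45.6 CPM in the 9 physical injury RGPs with at least 10 UMIs of the 9 genes. It was at 30.2 CPM in the other 67, beside 13.6 CPM in physical injury pericytes. In ischemic RGPs Mbp was at 27.5 CPM in 150 such cells and 15.6 CPM in the other 288, beside 26.9 CPM in pericytes. Ermn was at 53.9 CPM in the 9 physical injury cells, seen in 2 of them, and at 1.37 CPM in the other 67. The 17 naïve cells held 10 UMIs of the 9 genes in all.

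**Figure D4:**
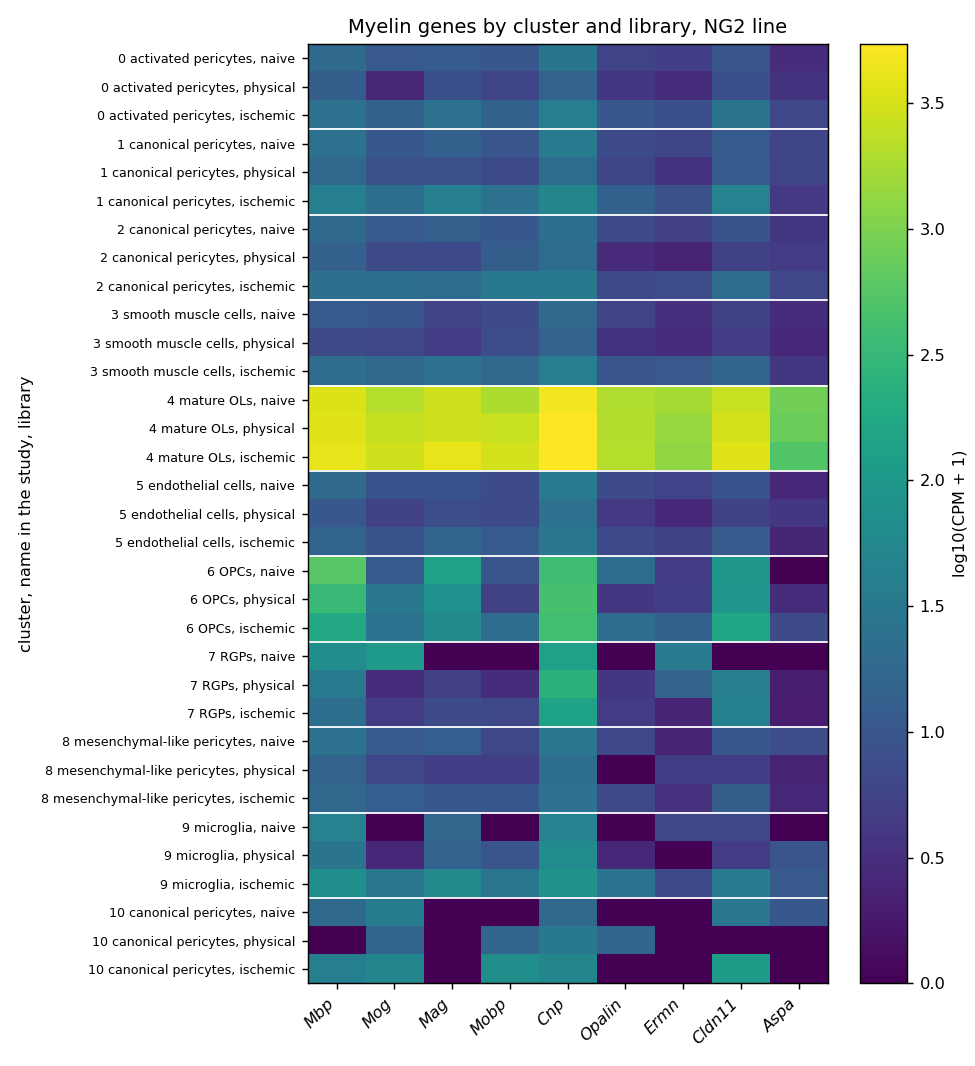
Level of each myelin gene, as log10(CPM + 1), in the 11 clusters of the NG2 line by library, with the study's cluster names. Cluster 4, mature OLs, is bright for all 9 genes, cluster 6 for Mbp, Cnp, Mag and Cldn11, and cluster 7 for Cnp. Naïve cells of cluster 7 and all of cluster 10 rest on few UMIs.

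In the Tbx18 line the genes came apart by cell type. Cluster 3, named microglia by the study, held Mbp at 65.2 CPM after physical and 73.3 CPM after ischemic injury and Cnp at 29.9 and 26.9 CPM, with Mog at 0 counts and Mobp at 0.50 and 0.48 CPM. The 76 naïve cells of this cluster had 0 counts of Mbp at a median depth of 1117.5 UMIs. Cluster 4, named vascular-genic pericytes, held Cldn11 at 58.4 CPM in naïve, 187 CPM in physical injury and 197 CPM in ischemic injury cells, with Mog, Mobp, Opalin and Ermn at 0 counts in each. Cldn11 was seen in 7.01%, 35.2% and 28.0% of its cells at median depths of 1724, 6756 and 8461 UMIs, and in 4.61%, 15.1% and 14.3% of cells thinned to 1000 UMIs. The cluster did not hold like cells in the 3 libraries: in cells without Cldn11 the pericyte gene Vtn was at 7986 CPM in naïve, 55.5 CPM in physical injury and 14.1 CPM in ischemic injury cells, and in cells with Cldn11 at 3453, 6.99 and 0 CPM. A change within a cell type and a change of the cells in the cluster cannot be told apart here. Cluster 5, fibroblasts, held Aspa at 64.1, 49.6 and 36.7 CPM, on 2, 43 and 3 counts.

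Tbx18 cluster 6, named glial precursors, had 0 naïve, 14 physical injury and 8 ischemic injury cells of unlike kinds. Of these 9 and 2 cells held all 9 genes, with 79 to 770 UMIs of them in the physical injury cells and 373 and 544 in the ischemic ones. These cells held 0 UMIs of Pdgfra and Ptprz1. The other 11 cells held 0 to 11 UMIs of the 9 genes and 12 to 55 UMIs of Ptprz1, a gene of precursors and astroglia. The name of the cluster thus covers cells with the full set of OL genes, 9 of the 14 and 2 of the 8.

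**Figure D5:**
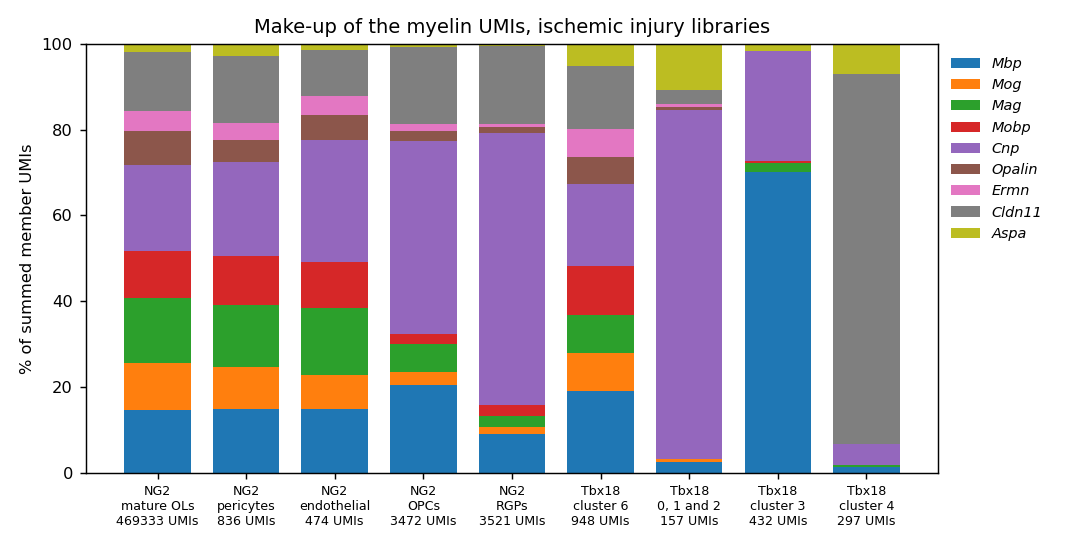
Share of each gene in the summed UMIs of the 9 myelin genes, in 9 cell sets of the ischemic injury libraries, with the number of UMIs under each bar. NG2 pericytes share most of the make-up of mature OLs but hold less Opalin (5.02% beside 7.78%), whereas OPCs and RGPs are richest in Cnp, Tbx18 cluster 3 in Mbp and Tbx18 cluster 4 in Cldn11.

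In the study's separate clustering of the naïve libraries, 96 of the 103 naïve OLs fell in 1 cluster, at 22067 CPM for the 9 genes. The other 7 fell in a mixed cluster, whose 29 NG2 cells stood at 982 CPM. That cluster also held 246 Tbx18 cells and stood at 371 CPM over all its cells. Of the 100 naïve OPCs 98 fell in 1 cluster, at 1220 CPM.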

How the data were processed

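For every cell and gene the authors deposited a UMI count, obtained from 10x 3′ libraries with Cell Ranger (7.0.0 in the submitters' processing notes) on mm10. They kept only cells past their filters on genes, UMIs and mitochondrial share. The deposited percent of mitochondrial transcripts was computed by the authors in Seurat and used here only in an alternative. Cluster numbers are the authors'. No deposited column of sample values was left unmapped.

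Per library, the UMIs of each cluster were added up and scaled to CPM, with 95% exact Poisson limits. Cell shares have exact Clopper-Pearson intervals, and ratios have exact conditional binomial intervals. With 1 pooled library per group nothing was tested. Genes with 20 or more counts in a pair of libraries were called past a fold of 2, and a library at 0 was set to 3 counts. 3′ UMIs count transcript ends, so no length scaling was made. Doublets were kept. Scrublet called 1, 12 and 3 cells in the NG2 libraries and so had not worked, and an alternative left out the cells of highest score. TMM factors came from edgeR 4.0.16 in R 4.3.3, and other steps used Python 3.11.15, scipy 1.17.1 and scanpy 1.11.5. The ratio script was tested on simulated data.

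The genes and lists were chosen with earlier results of these data known. Named were the 9 genes, from other lists the 2 of highest level in ischemic OLs and the largest ischemic to physical ratio each way past 2-fold, and the 10 genes of most similar profile. Not all genes this rule gives are named, and some are not reported here. Hapln2, Enpp6, Apoe and Ptprz1 were chosen after their values were seen.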

Additional observations from a re-analysis of the deposited data

Results flagged for a closer look

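Over 81 comparisons of a gene's ratio between 2 cell types of the NG2 line, 20 had counting intervals on opposite sides of 1. With 1 library per group, none of these differences was tested, and the OPC values rest on few cells. Between physical injury and naïve cells, Mog had a ratio of 1.23 in OLs and 2.86 in OPCs but 0.478 in pericytes. Cnp had a ratio of 1.16 in OLs and 1.20 in OPCs but 0.659 in pericytes. Opalin had a ratio of 1.05 in OLs but 0.150 in OPCs and 0.531 in pericytes.

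Between ischemic and naïve cells, Mbp had a ratio of 1.16 in OLs and 1.34 in pericytes but 0.312 in OPCs. Mag had a ratio of 1.42 in OLs and 2.14 in pericytes but 0.436 in OPCs, where it turned to a log2 of 0.46 with the study's filters applied again. Ermn had a ratio of 0.752 in OLs but 1.66 in pericytes.

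Between ischemic and physical injury cells, Mbp had a ratio of 1.13 in OLs and 1.98 in pericytes but 0.554 in OPCs. Mag had a ratio of 1.47 in OLs and 3.88 in pericytes but 0.795 in OPCs, and Cnp 1.02 and 2.20 but 0.885. Ermn had a ratio of 0.894 in OLs but 3.26 in OPCs and 3.81 in pericytes. Aspa had a ratio of 0.674 in OLs but 2.87 in OPCs. Without the cells of highest Scrublet score, the OPC ratios of Ermn and Aspa turned to a log2 of -0.20 and -0.68.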

How the results depend on the processing

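No paired analysis was possible because each group is 1 pooled library, and for the same reason no replicate could be left out. Values that moved are those that left the counting interval, which is narrow in OLs. Counts of genes past a fold are given below without the share of all genes at the same setting, which was not computed. They are thus no results about the 9 genes. The cause of the moves was not tested. The summed level in OLs, in naïve, physical injury and ischemic injury order, was 21308, 23904 and 26517 CPM as a mean over cells and 24179, 26106 and 29005 CPM without mitochondrial and ribosomal protein genes in the total. In physical and ischemic injury OLs it was 23831 and 27439 CPM with the study's filters applied again, 24389 and 27561 CPM without the cells of highest Scrublet score, and 24936 and 26121 CPM with TMM factors. The log2 ratio of the sum in OLs with TMM factors was 0.16 (physical injury to naïve), 0.23 (ischemic to naïve) and 0.0669 (ischemic to physical injury). For the last 2 it was 0.33 and 0.20 with the filters and 0.32 and 0.18 without cells of high Scrublet score. At a fold of 1.5, 1 gene (Mobp) was higher and 1 (Aspa) lower in ischemic than in naïve OLs. Cnp was 20.2% of the 9 genes' UMIs in ischemic OLs with the filters. Applied a second time to cells already past them, the filters kept 19, 175 and 505 of the 103, 294 and 592 OLs.

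In pericytes the sum was 108 CPM (naïve) and 254 CPM (ischemic) as a mean over cells, and 109 and 194 CPM without mitochondrial and ribosomal protein genes. The share of pericytes with a UMI was 9.91%, 4.79% and 16.1% thinned, 6.72%, 5.52% and 17.1% with at least 2 UMIs, and 0%, 0% and 0% with at least 10. Of the 9 genes 5 were lower in physical injury than in naïve pericytes at a fold of 1.5 and 0 at a fold of 3, and 7 and 1 were higher in ischemic than in naïve ones. The shares of all genes at these folds were not computed.

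OPC values depended most on the cells kept. With the filters the log2 ratio of the sum was 0.41 (physical injury to naïve), 1.09 (ischemic to naïve) and 0.68 (ischemic to physical injury), and without the cells of highest Scrublet score the last 2 were -1.01 and -0.69. Between physical injury and naïve OPCs 2 genes were higher and 0 lower with the filters, 0 were higher at a fold of 3, and 0, 2 and 4 were lower with 50 or more counts, with 1 or more and at a fold of 1.5. Between ischemic and naïve OPCs 5 were higher and 0 lower with the filters, 0 higher without cells of high Scrublet score, and 1 higher and 1 lower at a fold of 3. Between the injuries 1 was higher and 3 lower without those cells, and 1 lower at a fold of 1.5. For these counts too the share over all genes was not computed. Directions turned in OPCs for Mag (ischemic to naïve, log2 0.46 with the filters) and, without cells of high Scrublet score, for Mobp (-0.0077) and Ermn (-0.0297) against naïve and for Ermn (-0.20) and Aspa (-0.68) against physical injury. Of the 10 genes of most similar profile 5 stayed among the first 10 with a pseudocount of 10, and 4 with libraries summed. The values outside the main ones were for single genes and for sums and cell shares of further cell sets. Of these 405 moved, 5 reversed and 1171 stayed within their interval or within 1.5 times, as did the other 153 main values.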

Other observations

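The Tbx18 cells with Cldn11 in cluster 4 were not like its other cells in further genes. In the physical injury library 123 cells with Cldn11 held Aspa at 80.9 CPM and Ptgds at 3953 CPM, beside 15.0 and 985 CPM in 226 cells without. In the ischemic library 40 cells with Cldn11 held Aspa at 45 CPM and Ptgds at 2912 CPM, beside 4.33 and 754 CPM in 103 cells without. The cells were split on Cldn11, so these are values with no test. Apoe, a lipid carrier, was at 2121 CPM in the naïve OLs with at least 50 UMIs of the 9 genes, 409 CPM in those of physical injury and 220 CPM in those of ischemic injury.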
